A study of Mus musculus with 2 samples.

Results

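Testicular macrophages were taken from the scRNA-seq data of whole testes as the cells that expressed macrophage genes and no neutrophil, Sertoli cell or germ cell program. Of 13789 retained cells, 89 met this rule, 35 of 5077 in the control library and 54 of 8712 in the *Brca1* vKO library. A retained cell had at least 750 detected genes and at most 10% of its unique molecular identifiers (UMIs, which count captured RNA molecules) on mitochondrial genes. A selected cell had at least 10 UMIs of *Csf1r*, *Adgre1*, *Pf4*, *Cd74*, *C1qa* and *C1qb* together per 10000 UMIs, under 50 of *S100a8* and *S100a9*, under 10 of *Clu*, *Amhr2*, *Rhox8* and *Cst9*, and under 2 of *Ddx4* and *Dazl*. These genes chose the cells, so their levels in them are a description and not a finding.

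One library came from a control mouse and the other from a *Brca1* vKO mouse, and both were made from testes at postnatal day (PD) 7. *Brca1* vKO mice carry 1 floxed and 1 deleted *Brca1* allele and *Vasa-Cre*, a transgene that recombines the floxed allele in germ cells from before birth. Their macrophages are therefore expected to keep the floxed allele, and carry the deleted one as every other somatic cell does. The control was described as a littermate, and its genotype is not given further in the sources used here. Testes were digested with collagenase IV and TrypLE Express, and the suspensions were not sorted. The authors state that more cells were loaded from the smaller *Brca1* vKO testes, so that enough germ cells would be captured. With 1 library per genotype there is no test between genotypes. All intervals below are exact 95% intervals that cover counting error only, not the spread between mice or between cells, and effects of genotype, mouse and library cannot be told apart.

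Macrophages are phagocytes that live in almost every tissue and depend on the receptor CSF1R and its ligands CSF1 and IL34. In the testis they sit between the tubules beside Leydig cells and on the tubule wall. They derive from progenitors that arrive before birth and from monocytes, which are recruited through the chemokine receptor CCR2. They clear dying cells, recycle iron from heme, present antigen on MHC class II when activated, and secrete complement C1q and chemokines.

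The libraries held 5812 and 9456 barcodes in the control and *Brca1* vKO, and 120568700 and 165062097 UMIs. The retained cells had medians of 16917 and 12970.5 UMIs. No selected cell shared its barcode with a selected cell of the other library, but 2 selected cells shared theirs with some other cell of it, and 16 barcodes occurred among the retained cells of both. Scrublet, which marks likely doublets, marked 3.17% and 2.86% of retained cells, among them 0 of 35 and 2 of 54 selected cells. Germ cells by *Ddx4* and *Dazl* numbered 1110 and 283, which moves every share of all cells, so shares are also given over somatic cells.

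The selected cells made up 0.689% of retained cells in the control (0.481 to 0.957%) and 0.620% in *Brca1* vKO (0.466 to 0.808%). The ratio of *Brca1* vKO to control was 0.899 (0.577 to 1.42). Over somatic cells the shares were 0.882% and 0.641%, with a ratio of 0.726 (0.466 to 1.14). The intervals of both ratios include 1, so no difference in the share was detectable at these cell numbers. On the genes of the rule, 94.6% and 94.4% of retained cells had no UMI, and 31 and 66 cells lay between 1 and 10 per 10000. The lowest selected cell had a summed level of 11.1 per 10000 UMIs in the control and 16.9 in *Brca1* vKO, and the highest cells below the threshold had 8.96 and 8.54, so the limit lies within a thin but continuous range.

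The label was then checked in each cell, and the rule turned out to hold several kinds of cells. This division was made after the values had been seen. The largest kind had at least 10 UMIs of the complement genes *C1qa*, *C1qb* and *C1qc* per 10000, and is called C1q cells here. It held 22 control cells and 41 *Brca1* vKO cells. A further 10 and 9 cells had none of these UMIs and at least 5 per 10000 of *Cd79a*, *Cd79b* and *Ms4a1*, which encode the signalling chains of the B cell antigen receptor and the surface protein CD20. The remaining 3 and 4 cells were neither.

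**Figure D1:**
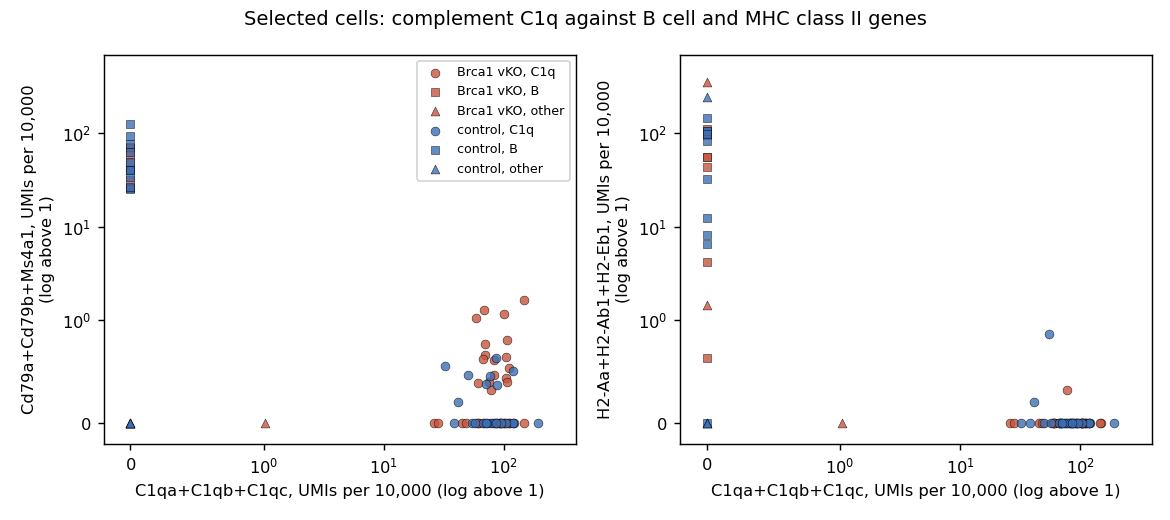
Each point is 1 of the 89 selected cells, with summed C1q genes on the x axis and summed B cell genes (left) or MHC class II genes (right) on the y axis, in UMIs per 10000 on axes that are linear up to 1 and logarithmic above. Circles are the 22 control and 41 *Brca1* vKO C1q cells, squares the 10 and 9 cells with B cell genes, and triangles the 3 and 4 other cells. The C1q cells lie apart from the others on the x axis by definition.

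The cells with B cell genes were selected through *Cd74* alone, which encodes the invariant chain of MHC class II and is shared by antigen-presenting cells. They held 71.1% of the selected cells' *Cd74* UMIs in the control and 59.0% in *Brca1* vKO, and 0 UMIs of *Csf1r*, *Adgre1*, *Pf4*, the C1q genes, *Lyz2* and *Mrc1* in either library. All of the 420 and 190 UMIs of *Igkc*, the immunoglobulin kappa constant chain, lay in them, and 206 of 207 and 110 of 110 UMIs of *Cd79a*. The macrophage markers are absent from these cells, and the label does not hold for them. They made up 0.197% of retained cells in the control (0.0945 to 0.362%) and 0.103% in *Brca1* vKO (0.0472 to 0.196%), with a ratio of 0.524 (0.189 to 1.44).

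The 7 other cells were also mixed. In the control, 1 cell had 47 UMIs of *Lyz2*, 19 of *Plac8* and 7 of *Csf1r* with none of *C1qa* or *C1qb*. A second had 203 UMIs of *Cd74*, 139 of *H2-Aa*, 22 of *Irf8* and 2 of *Xcr1*, of which *Xcr1* marks a class of dendritic cells. The third had 17 UMIs of *Pf4* beside 86 of the stromal gene *Dlk1*. In *Brca1* vKO, 3 cells had between 36 and 80 UMIs of *Lyz2* with 65, 41 and 0 of *Plac8* and 0, 3 and 26 of *Ccr2*. The fourth had 197 UMIs of *Cd74*, 85 of *H2-Aa* and 2 of *Flt3*. None of these 7 cells had any UMI of *Ly6c2*, a defining gene of inflammatory monocytes.

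The C1q cells fit the label by genes that the rule did not use. All other cells, here and below, are the 5042 and 8658 retained cells outside the selection, so the remaining selected cells are not among them. Of 24 core macrophage genes outside the rule, of which *C1qc* helped define these cells, 24 were at least 2-fold higher in C1q cells than in all other cells, in both libraries. The same held for 917 of 4243 tested genes (21.6%). The medians of these 24 genes' log2 ratios were 5.76 and 5.62. A selection on 7 other genes (*C1qc*, *Mrc1*, *Ms4a7*, *Fcgr1*, *Mertk*, *Cd68* and *Aif1*) found 22 control and 43 *Brca1* vKO cells, including all 22 and all 41 C1q cells. Because *C1qc* also defined the C1q cells, the selection was repeated without it, and found 21 and 41 cells, of which 21 and 39 were C1q cells. C1q cells were 0.433% of retained cells in the control (0.272 to 0.655%) and 0.471% in *Brca1* vKO (0.338 to 0.638%), a ratio of 1.09 (0.632 to 1.91). Over somatic cells the ratio was 0.877 (0.510 to 1.55). The share recovered by the digestion and the share in the tissue cannot be told apart.

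The 4 canonical genes of the rule were present in nearly every C1q cell. *Csf1r*, the receptor for CSF1 and IL34, had 285 UMIs in 21 of 22 control cells and 441 in 40 of 41 *Brca1* vKO cells, from 0 through a median of 3.49 to 16.6 per 10000 UMIs in the control and from 0 through 5.52 to 13.9 in *Brca1* vKO. *Adgre1*, which encodes the F4/80 antigen, ran from 0.840 through 3.25 to 11.6 and from 0 through 3.66 to 17.0. *Pf4*, a chemokine gene of platelets and tissue macrophages, was at 0 in 3 control and 2 *Brca1* vKO cells and had medians of 35.6 and 37.6. *C1qa* ran from 6.70 through 26.4 to 75.3 and from 5.64 through 29.9 to 68.7. The levels of single cells overlapped widely between the libraries for each of these genes. UMIs were also summed over the C1q cells and scaled to CPM, a scale on which 1 UMI per 10000 is 100 CPM. The ratio of *Brca1* vKO to control was 1.11 for *Csf1r* (0.954 to 1.29), 1.04 for *Adgre1* (0.870 to 1.25), 1.14 for *C1qa* (1.07 to 1.22) and 0.977 for *C1qb* (0.917 to 1.04).

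Genes outside the rule varied over a wider range from cell to cell. *Lyz2*, lysozyme, was present in all C1q cells, from 1.29 through a median of 32.2 to 88.7 per 10000 in the control and from 1.08 through 28.3 to 165 in *Brca1* vKO. *Apoe* ran from 8.70 through 154 to 403 and from 14.0 through 171 to 402. *Mrc1* was at 0 in 2 cells of each library, with medians of 17.5 and 16.8 and highest cells of 34.7 and 58.8. *F13a1* was at 0 in 6 cells of each library, with medians of 8.93 and 8.64 and highest cells of 36.9 and 41.9. For none of these genes were the libraries separated, and the CPM ratio was 1.17 for *Lyz2* (1.11 to 1.23), 1.11 for *Apoe* (1.09 to 1.14), 1.27 for *Mrc1* (1.17 to 1.37) and 1.05 for *F13a1* (0.952 to 1.17).

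After thinning each cell to 2000 UMIs, which removes differences in depth, *Csf1r* was detected in 68.2% of control C1q cells (45.1 to 86.1%) and 62.5% of *Brca1* vKO C1q cells (45.8 to 77.3%). It was detected in 0 of 2318 control Sertoli-gene cells (upper limit 0.159%) and 0.0877% of those in *Brca1* vKO. These cells should lack the gene, and their share serves as the background. Without thinning, 95.5% and 97.6% of C1q cells and 0.872% and 1.14% of Sertoli-gene cells had a *Csf1r* UMI, at median depths of 26826.5 and 18898 UMIs in C1q cells and 17682 and 15130 in Sertoli-gene cells.

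**Figure D2:**
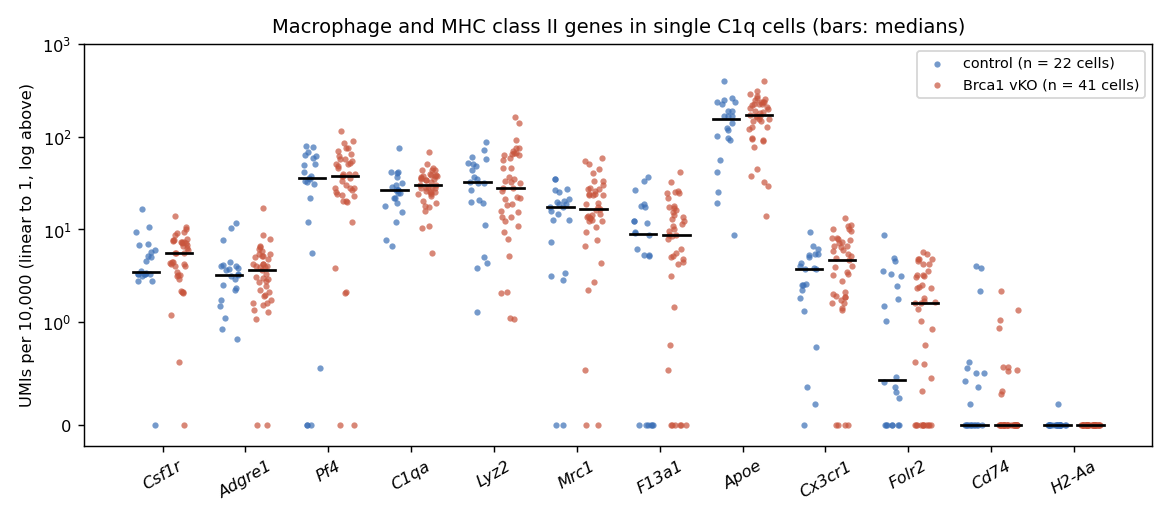
Each point is 1 C1q cell (22 control in blue, 41 *Brca1* vKO in red), the y axis gives UMIs per 10000 (linear up to 1, logarithmic above) and black bars are medians. *C1qa* and *Apoe* were above 0 in every cell, the 2 libraries overlapped for each gene, and *H2-Aa* was at 0 in all but 1 control cell.

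The 15 genes outside the rule that most set the selected cells apart from all other cells were *Cxcl2*, *Apoe*, *C1qc*, *Ccl2*, *Lyz2*, *Ccl4*, *Tyrobp*, *Plek*, *Mrc1*, *Fcer1g*, *Cd83*, *Ctsc*, *F13a1*, *Ms4a7* and *Ctss*. They encode chemokines (*Cxcl2*, *Ccl2*, *Ccl4*), signalling adaptors (*Tyrobp*, *Fcer1g*), lysosomal proteases (*Ctsc*, *Ctss*), lysozyme (*Lyz2*), the mannose receptor (*Mrc1*) and a coagulation factor subunit (*F13a1*). Under 1% of the cells therefore held most of a library's UMIs of several genes. For *C1qc* the selected cells held 92.4% of all UMIs in the control and 89.9% in *Brca1* vKO, for *Ms4a7* 93.0% and 89.6%, for *F13a1* 92.4% and 88.7%, and for *Cxcl2* 87.6% and 81.6%. *Lyz2* was 91.2% and 52.2%. The neutrophil threshold of *S100a8* and *S100a9* was passed by 3 control and 52 *Brca1* vKO cells, of which 3 and 44 had no Sertoli cell or germ cell program and form the neutrophil-gene class. This class held 27 *Lyz2* UMIs in the control (1.15% of the library's) and 2216 in *Brca1* vKO (32.3%).

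Several leading genes were shared with the neutrophil-gene cells. *Tyrobp* was at 4033 and 1683 CPM in them and at 1797 and 1911 CPM in C1q cells, *Fcer1g* at 2157 and 1149 CPM and at 2257 and 2247 CPM, and *Lyz2* at 2532 and 7444 CPM and at 3616 and 4220 CPM. *Cxcl2* was at 5627 and 138 CPM in neutrophil-gene cells and at 4969 and 4103 CPM in C1q cells. The control values rest on 3 cells. By contrast *C1qa*, *Mrc1* and *Ccl2* had 0 UMIs in the neutrophil-gene cells of both libraries.

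The promoters of the leading genes were searched for GAGGAAGT, a core sequence bound by PU.1, the ETS factor encoded by *Spi1* that specifies macrophages. Windows of 300 bases around RefSeq start sites (GRCm38.p6) were found for 11 of the 15 genes, and 4 of them (*C1qc*, *Ctsc*, *Ctss* and *F13a1*) held it on either strand, in 4 of 15 windows (26.7%). Of all 32851 windows, 1052 (3.20%) held it. A match is a description of the letters and not evidence of binding. The stretches before the GENCODE start sites of *C1qc*, a subunit of complement C1q, and *Ctsc*, cathepsin C, are shown because their matches lie fully upstream. Both are read 5′ to 3′ on the strand of the gene, and the capitals mark the reverse complement of the motif.
C1qc promoter, chr4:136893066-136893164, minus strand: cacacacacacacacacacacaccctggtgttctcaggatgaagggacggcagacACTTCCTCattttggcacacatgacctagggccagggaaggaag
Ctsc promoter, chr7:88277835-88278084, plus strand: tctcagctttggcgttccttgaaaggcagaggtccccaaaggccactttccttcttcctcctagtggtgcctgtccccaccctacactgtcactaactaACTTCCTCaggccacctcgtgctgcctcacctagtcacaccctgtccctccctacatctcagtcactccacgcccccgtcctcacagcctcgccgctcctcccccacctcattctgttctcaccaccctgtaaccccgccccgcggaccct
The match ended 37 bases before the start site of *C1qc* and 144 bases before that of *Ctsc*. *Spi1* itself had 235 and 317 UMIs in 21 of 22 and 40 of 41 C1q cells. Of 18 genes of macrophage transcription factors, 14 were at least 2-fold higher in C1q cells than in all other cells in both libraries.

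Gene groups of macrophage function were then described in C1q cells against all other cells of their own library. Of all tested genes, those with at least 50 UMIs in C1q cells, 21.6% passed 2-fold in both libraries. List members were counted without that minimum, so lists and background are unlike sets. The minimum was reached by 22 lysosomal, 11 chemokine, 5 Fc receptor, 9 complement, 11 apoptotic uptake and 6 heat shock genes. Of 24 lysosomal genes 21 passed, with medians of 2.34 and 2.46 on the log2 scale. *Ctsb*, a cathepsin, was at 2266 and 2185 CPM in C1q cells and 110 and 134 CPM in all other cells. Of 15 chemokine genes 12 passed, of 6 Fc receptor genes 5, of 14 genes of the complement system 9 (among them the 3 C1q genes that defined the cells), and of 20 genes of apoptotic cell uptake 11. *Mertk*, the receptor that binds dying cells through the bridging protein GAS6, was at 86.1 and 162 CPM in C1q cells and 27.0 and 28.2 CPM elsewhere. *Cd36* and *Stab1*, which encode scavenger receptors, were at 1088 and 784 CPM and at 300 and 373 CPM, and all other cells were below 1 CPM for both. None of 10 heat shock genes passed.

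Immediate early genes respond quickly to stimuli, tissue digestion included, and 10 of 21 passed. *Fos* was at 3710 and 3281 CPM in C1q cells and 1570 and 2538 CPM in other cells, and *Atf3* at 1245 and 2140 CPM against 88.9 and 119 CPM. The chemokine genes that lead these cells are inducible as well. The part of the digestion in these levels was not tested.

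Of the MHC class II list, 2 of 10 genes passed, *Cd86* and *H2-DMa*. Only 2 genes of the list reached 50 UMIs in C1q cells. *H2-Aa*, *H2-Ab1* and *H2-Eb1*, the chains that present peptides, had 1, 0 and 2 UMIs in the 22 control C1q cells and 0, 0 and 1 in the 41 *Brca1* vKO cells. *Ciita*, the master regulator of these genes, had 0 UMIs in both. *Cd74* had 30 and 17 UMIs, in 10 C1q cells of each library. *Cd86*, a costimulatory ligand of T cells, was by contrast present in 21 of 22 and 38 of 41 C1q cells, with 537 and 631 UMIs. The MHC class II genes of the selected cells therefore lay almost wholly in the cells with B cell genes and in the 2 other cells with high *Cd74*.

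Markers of mast cells, neutrophils and lymphocytes were low or at 0 in C1q cells. For neutrophils and B cells this follows in part from the selection. It limited *S100a8* and *S100a9* and set the cells with *Cd79a*, *Cd79b* and *Ms4a1* apart. The 6 mast cell genes were at 0 UMIs in both libraries, and of 10 neutrophil genes 7 and 6 were at 0. Of 9 lymphocyte genes 5 and 7 were at 0. The neutrophil list had 14 and 20 UMIs in all, in 7 of 22 and 17 of 41 C1q cells. The lymphocyte list had 15 and 27 UMIs, in 9 and 20 cells. Of 7 microglial genes, 2 (*P2ry12* and *Gpr34*) were at least 2-fold higher in C1q cells than elsewhere in both libraries, beside 21.6% of all tested genes. The medians of the list were 0.56 and 1.19 on the log2 scale. Its summed level was lower in C1q cells, at 477 and 782 CPM against 1476 and 1849 CPM elsewhere. *P2ry12*, a purinergic receptor, had 43 and 64 UMIs in 17 and 27 cells, whereas *Sall1*, the factor that defines microglia, had 0. Of 14 listed genes of resident macrophages, 10 were at least 2-fold higher in C1q cells than elsewhere in both libraries. In the control C1q cells 2 of the 14 had 0 UMIs. The tissue-resident genes *Mrc1*, *F13a1*, *Cbr2*, *Folr2*, *Stab1* and *Igf1* were detected in most C1q cells, with *F13a1* in 16 of 22 and 35 of 41. *Timd4*, a phosphatidylserine receptor of long-lived resident macrophages, had only 7 and 10 UMIs, in 3 and 9 cells. *Lyve1*, a hyaluronan receptor of perivascular macrophages, had 0 UMIs in the control and 34 in *Brca1* vKO, of which 26 were in 1 cell.

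C1q cells were also divided by *Ccr2*, the monocyte chemokine receptor. It had a UMI in 5 of 22 control and 5 of 41 *Brca1* vKO C1q cells. These 10 cells were picked by that value, and what follows describes them without a test. *Pf4* had medians of 0 and 2.11 per 10000 in them and of 41.5 and 39.6 in the C1q cells without *Ccr2*. *F13a1* had 0 and 1 UMIs in them and 644 and 945 in the rest, and *Folr2*, a folate receptor of resident macrophages, had 0 UMIs in both. *Mrc1* had medians of 2.88 and 2.24 against 18.8 and 19.1, and *Apoe* of 41.8 and 32.7 against 168 and 187. *C1qa* hardly set them apart, with medians of 26.4 and 23 against 26.4 and 31.9. *Tnf*, the inflammatory cytokine, ran the other way, with medians of 22.3 and 22.1 against 4.53 and 2.83, and so did *Cxcl2*, with 119 and 124 against 31.4 and 33.9. *Ly6c2* had 0 UMIs in all C1q cells. The cells with *Ccr2* were shallower in both libraries, with medians of 17923 and 9493 UMIs against 27245 and 20334.5, and the part of depth was not tested.

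Cycling was read after thinning to 2000 UMIs. At least 2 UMIs of 20 G2/M genes were found in 27.3% of control C1q cells (10.7 to 50.2%) and 8 of 40 *Brca1* vKO C1q cells (9.05 to 35.6%). At least 2 UMIs of 20 S phase genes were found in 31.8% (13.9 to 54.9%) and 32.5% (18.6 to 49.1%). In all selected cells the G2/M shares were 22.9% and 18.9%. Sertoli-gene cells, which divide at this age, had G2/M shares of 32.1% and 33.7%, and stromal-gene cells 13.9% and 11.2%. *Mki67*, a proliferation marker, was at 207 and 214 CPM in C1q cells, a ratio of 1.03 (0.814 to 1.32). The intervals of the C1q cells overlap between the libraries and include the values of both other classes.

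The 2 libraries were compared gene by gene as a log2 ratio of CPM with 10 CPM added to both. A gene was compared, and is called tested here although no statistical test was possible, where the control and *Brca1* vKO cells together held 50 UMIs or more. Over all selected cells, 53 of 4775 genes were at least 2-fold higher in *Brca1* vKO (1.11%) and 59 were at least 2-fold lower (1.24%). In C1q cells alone, 74 of 4243 genes were higher (1.74%) and 57 lower (1.34%), and the median of all genes was 0.04 on the log2 scale. The lists are read against these shares, and no list was tested as a set. *Brca1* had 6 UMIs in the control C1q cells and 9 in *Brca1* vKO, or 10.3 CPM (3.79 to 22.5) and 11.1 CPM (5.08 to 21.1), which shows no difference at this depth. In all other cells it was at 38.6 and 22.0 CPM. Germ cells, 1110 and 283 in number, held 54.1% and 11.2% of each library's *Brca1* UMIs, so these pooled levels depend on the germ cell share. Within classes *Brca1* was at 69.2 and 43.2 CPM in germ cells and 28.9 and 25.0 CPM in Sertoli-gene cells. Stromal-gene cells were at 17.7 and 9.78 CPM and myoid-gene cells at 16.6 and 8.12 CPM. Endothelial-gene, Leydig-gene and pericyte-gene cells and cells of no class, with at most 41 UMIs, were not lower in *Brca1* vKO. The part of each was not tested.

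Several genes at either end rested on few cells. The 8 lowest ratios over the selected cells were those of *Il1b*, *Rsad2*, *Gclm*, *Srxn1*, *Gbe1*, *Ccl12*, *Bcl2a1a* and *Kcnip4*, and the 8 highest those of *Cyp17a1*, *Sclt1*, *Spp1*, *Nhs*, *Gpnmb*, *Samd4*, *Rian* and *Dlgap1*. In C1q cells *Ifitm3* took the place of *Bcl2a1a* among the lowest. The 8 highest there were *Acta2*, *Cyp17a1*, *Nhs*, *Pakap* (of the entries with this name, the one with 0 and 50 UMIs), *Nlgn1*, *Sclt1*, *Fhl2* and *Col4a4*. All of these but *Cyp17a1* and *Sclt1* were lower in C1q cells than in all other cells, in both libraries. In the selected cells *Nhs*, *Rian* and *Dlgap1* were also lower than elsewhere, at 0.520, 0.598 and 0.340 of that level in *Brca1* vKO. A single control cell with 47609 UMIs held 311 of 566 UMIs of *Gclm*, 169 of 211 of *Srxn1* and 161 of 222 of *Gbe1*, the first 2 being genes of the oxidative stress response. In *Brca1* vKO 61 of 63 UMIs of *Cyp17a1*, a steroidogenic gene of Leydig cells, lay in 1 C1q cell that also passed a limit for genes of other somatic cells, and 129 of 146 UMIs of *Sclt1* lay in 1 other cell. The *Brca1* vKO cells with most UMIs of *Rian*, *Dlgap1*, *Acta2* and *Col4a4* passed that limit too. When the cell with most UMIs of each gene was left out in each library, 39 of the 53 higher genes and 30 of the 59 lower genes stayed past 2-fold.

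The core identity genes differed little between the libraries. The 24 core genes had a median of 0.05 on the log2 scale in C1q cells, and 1 of 24 passed 2-fold. This was *Fcgr1*, the high-affinity IgG receptor, with 125 UMIs in the control and 83 in *Brca1* vKO and a ratio of 0.476 (0.356 to 0.634). It was found in 21 of 22 and 33 of 41 cells, with highest levels of 8.64 and 4.87 per 10000, and lay just past the 2-fold limit. *Fcer1g*, the chain through which it signals, had a ratio of 0.996 (0.927 to 1.07). None of 13 tested transcription factor genes passed, and of 22 tested lysosomal genes 1 did, *Lipa*, the acid lipase that frees cholesterol. *Lipa* had a ratio of 0.464 (0.362 to 0.593), and of 0.738 without the highest cell of each library.

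Of 10 tested genes of iron and heme handling, *Hmox1* and *Slc40a1* were at least 2-fold lower in the *Brca1* vKO library, and the median of the list was -0.36 on the log2 scale. The summed list had close medians per cell, 231 and 238 per 10000. *Hmox1*, heme oxygenase 1, had 3597 UMIs in 20 of 22 control C1q cells and 1154 in 34 of 41 *Brca1* vKO cells. Per cell its level ran from 0 through a median of 4.87 to 210 per 10000 in the control, and from 0 through 4.42 to 121 in *Brca1* vKO. The medians were thus close, and the libraries differed in the number of cells with a high level. At least 50 per 10000 were reached by 8 of 22 control cells (36.4%, 17.2 to 59.3%) and 3 of 41 *Brca1* vKO cells (7.32%, 1.54 to 19.9%), a limit chosen after the values were seen. The CPM ratio was 0.230 (0.215 to 0.246), and 0.215 without the highest cell of each library.

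*Slc40a1*, the iron exporter ferroportin, followed the same pattern, with medians of 0.993 and 1.08, highest cells of 41.8 and 9.67 per 10000, and a ratio of 0.266 (0.225 to 0.313). The heavy and light ferritin chains *Fth1* and *Ftl1* had ratios of 0.559 (0.541 to 0.577) and 0.784 (0.765 to 0.804), and *Slc48a1*, a heme transporter, 0.539 (0.418 to 0.693). *Hpgd*, a prostaglandin-degrading enzyme that also stood on this list, went the other way with 1.68 (1.42 to 1.99). The hemoglobin genes were also lower in the *Brca1* vKO library, in all other cells as in C1q cells. *Hbb-bs* was at 119 and 32.1 CPM in C1q cells and 497 and 115 CPM in all other cells, and its part in the *Hmox1* difference was not tested.

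**Figure D3:**
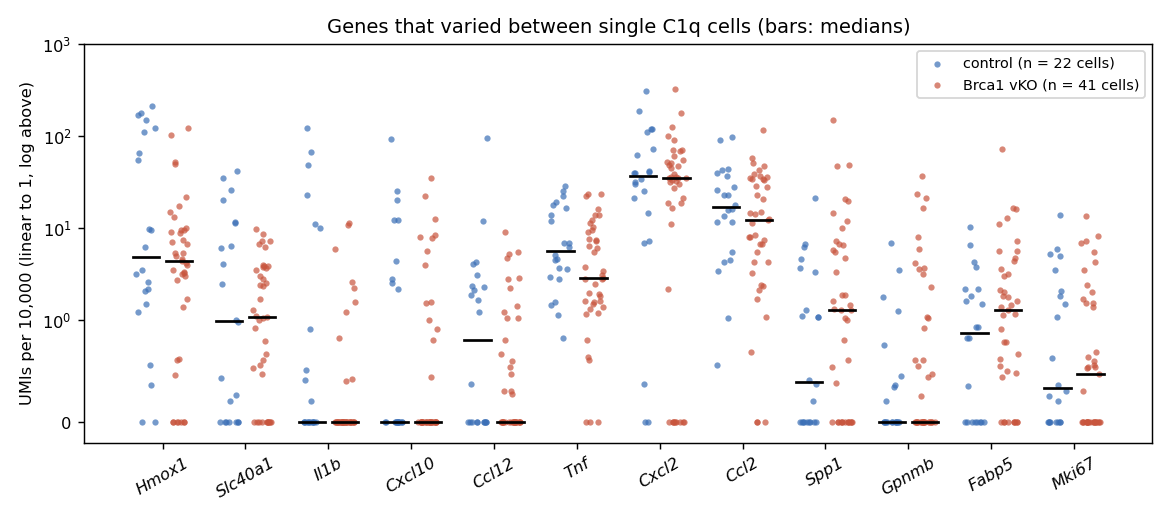
Each point is 1 C1q cell (22 control in blue, 41 *Brca1* vKO in red), the y axis gives UMIs per 10000 (linear up to 1, logarithmic above) and black bars are medians. Medians of *Hmox1* were 4.87 and 4.42, but 8 control cells and 3 *Brca1* vKO cells lay at or above 50; for *Spp1*, 1 control cell and 7 *Brca1* vKO cells lay at or above 10.

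Of 15 cytokine genes 8 were tested, and 2 passed 2-fold, both lower in *Brca1* vKO, with a median of -0.56 on the log2 scale. *Il1b*, interleukin 1 beta, had 589 UMIs in 10 control C1q cells and 68 in 10 *Brca1* vKO cells, a ratio of 0.0828 (0.0634 to 0.107). Of these UMIs 560 lay in the 5 control cells with *Ccr2*, whereas the 5 *Brca1* vKO cells with *Ccr2* held 5. In the C1q cells without *Ccr2* there were 29 and 63 UMIs, so the difference in *Il1b* lay in those few cells. *Csf1* had 82 UMIs in 4 control cells and 45 in 8 *Brca1* vKO cells, with a ratio of 0.394 (0.267 to 0.573) that became 3.50 without the highest cell of each library. *Tnf* had a ratio of 0.70 (0.617 to 0.794) and *Il1a* of 0.632 (0.494 to 0.809). *Il6*, *Lif* and *Ifnb1* had 0 UMIs in both libraries.

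The chemokine genes had a median of -0.29 on the log2 scale, and 2 of 11 tested genes, *Ccl12* and *Cxcl10*, passed 2-fold. *Ccl12*, a monocyte attractant, had 357 and 74 UMIs, and 266 of the 357 lay in 1 control cell. Its ratio of 0.149 (0.114 to 0.191) became 0.452 without the highest cells. *Cxcl10*, an interferon-induced attractant of T cells, had 483 UMIs, of which 259 were in that same cell, and 211 in *Brca1* vKO, and its ratio moved from 0.313 (0.265 to 0.369) to 0.530. *Cxcl2* and *Ccl2*, which attract neutrophils and monocytes, had ratios of 0.826 (0.785 to 0.868) and 0.827 (0.769 to 0.888) and medians per cell of 36.6 and 34.7 and of 17.0 and 12.3. *Ccl24*, an eosinophil attractant, was higher in *Brca1* vKO with a ratio of 1.72 (1.26 to 2.38).

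Of 19 interferon-stimulated genes 8 were tested, and 4 of these were at least 2-fold lower in *Brca1* vKO C1q cells (*Cxcl10*, *Ifi204*, *Ifitm3* and *Rsad2*), with a median of -0.87 over the 8. The medians per cell of the summed list were 6.80 and 5.37 per 10000, and the highest cell of *Brca1* vKO was at 37.0. In the control 2 cells stood at 170 and 110, and the next at 27.9. *Rsad2*, *Ifit1*, *Isg15* and *Usp18* had 61, 49, 30 and 20 UMIs in the control and 0 in *Brca1* vKO. These UMIs came from few cells, 2 for *Rsad2* and 4 for *Ifit1*, in which 36 of 61 and 38 of 49 lay in the same cell. *Bst2*, a member present in most C1q cells, had a ratio of 1.03 (0.731 to 1.45).

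Of 14 tested genes of lipid handling, *Spp1*, *Gpnmb* and *Fabp5* were at least 2-fold higher and *Lipa* lower in *Brca1* vKO, with a median of 0.16. *Spp1*, osteopontin, had 149 UMIs in 13 of 22 control cells and 995 in 28 of 41 *Brca1* vKO cells. At least 10 per 10000 were reached by 1 of 22 (4.55%, 0.115 to 22.8%) and 7 of 41 (17.1%, 7.15 to 32.1%), again at a limit chosen after the values were seen. The ratio was 4.79 (4.03 to 5.73), and 3.83 without the highest cells. Sertoli-gene cells held 93.7% and 95.6% of each library's *Spp1* UMIs, at 255 and 333 CPM, so that low levels in C1q cells and RNA carried over from Sertoli cells cannot be told apart. *Gpnmb*, a lysosomal glycoprotein of lipid-laden macrophages, had no such source, with 0.179 and 0.209 CPM in all other cells. It had 48 UMIs in 9 control cells and 321 in 20 *Brca1* vKO cells, a ratio of 4.80 (3.53 to 6.64), and 5.14 without the highest cells. *Fabp5*, a fatty acid carrier, had a ratio of 2.47 (2.03 to 3.01). A single *Brca1* vKO cell held 450 of 995 UMIs of *Spp1*, 111 of 321 of *Gpnmb* and 218 of 468 of *Fabp5*. *Apoe*, the lipid carrier, and *Trem2*, a lipid receptor, had ratios of 1.11 (1.09 to 1.14) and 1.18 (1.03 to 1.37).

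**Figure D4:**
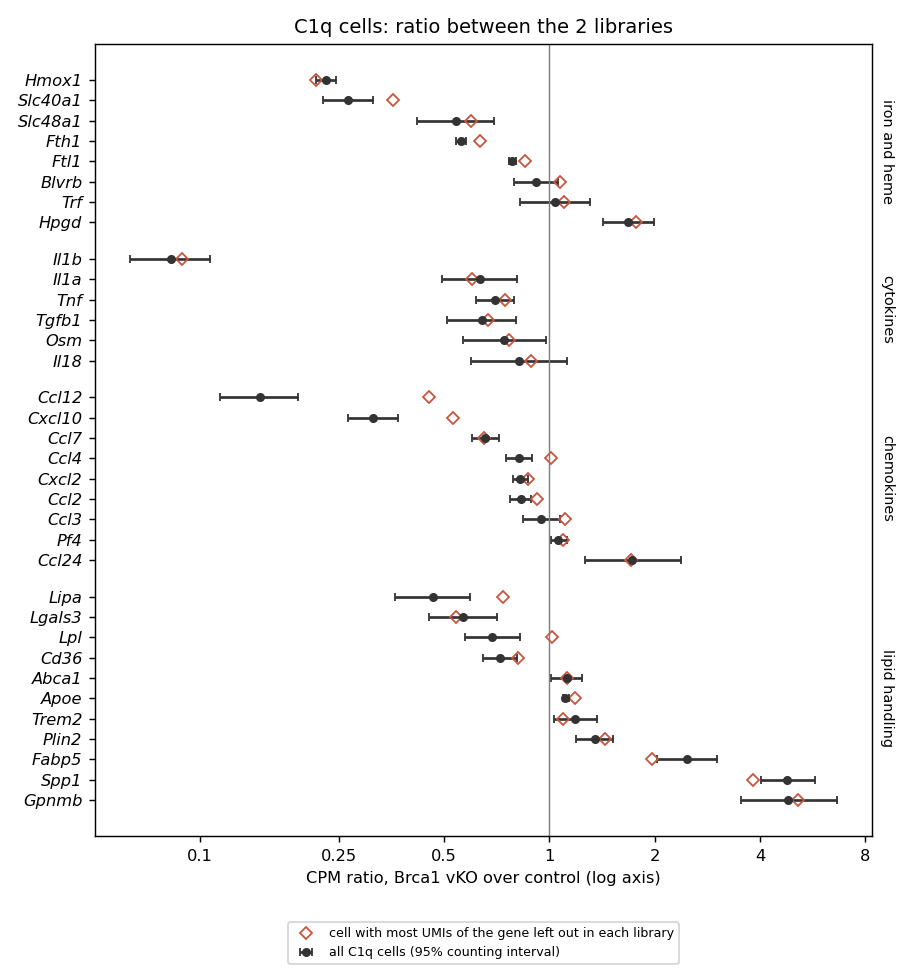
Circles with bars give the CPM ratio of *Brca1* vKO to control in C1q cells with its exact 95% counting interval, and open diamonds the ratio without the cell that held most UMIs of the gene in each library, on a logarithmic axis with the line at 1. *Hmox1* (0.230 and 0.215), *Gpnmb* (4.80 and 5.14) and *Spp1* (4.79 and 3.83) kept their distance from 1, while *Ccl12* moved from 0.149 to 0.452.

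Genes of dying cell uptake were read as a group because germ cells differ between the libraries. The median of 11 tested members was 0.02 on the log2 scale, and *Marco*, a scavenger receptor, passed 2-fold with 48 and 9 UMIs. *Mertk* had 50 UMIs in 15 control cells and 131 in 29 *Brca1* vKO cells, a ratio of 1.88 (1.35 to 2.66), with medians per cell of 0.734 and 0.786. *Itgav* and *Gas6* had ratios of 1.57 (1.33 to 1.85) and 1.5 (1.25 to 1.81). *Axl* had a ratio of 1.13 (0.551 to 2.38). Among growth factors, *Igf1* had a ratio of 0.987 (0.868 to 1.12) and *Tgfb1* of 0.640 (0.510 to 0.803).

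Pattern recognition receptors included 1 of 10 tested genes past 2-fold, *Clec4n*, which encodes the fungal lectin receptor Dectin-2. It had 636 UMIs in 18 control cells and 351 in 36 *Brca1* vKO cells, a ratio of 0.396 (0.346 to 0.452) and of 0.513 without the highest cells. *Tlr2*, a receptor for bacterial lipoproteins, had a ratio of 0.812 (0.620 to 1.06). Of 7 tested MHC class I genes none passed. Since *Brca1* acts in DNA repair, its pathway was looked at as well. Of 17 genes of homologous recombination 2 reached the minimum of UMIs, with a median of -0.10. Of 8 tested p53 target genes 1 passed 2-fold, *Gdf15*, a stress-induced growth factor, with 126 UMIs in 8 control cells and 76 in 14 *Brca1* vKO cells. Its ratio of 0.433 (0.321 to 0.580) became 1.05 without the highest cells.

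The ligands of these cells were set beside their receptors, by classes of cells cut with fixed marker thresholds. C1q cells held 76.4% and 74.2% of each library's *Csf1r* UMIs, at 491 CPM (435 to 551) and 544 CPM (495 to 598). *Csf1* was at 31.6 CPM in control stromal-gene cells (28.7 to 34.7) and 34.5 CPM in *Brca1* vKO (32.3 to 36.9). Myoid-gene cells were at 26.8 and 26.2 CPM, endothelial-gene cells at 42.5 and 22.9 CPM and Sertoli-gene cells at 7.85 and 7.77 CPM. By their numbers, stromal-gene cells held 33.2% and 38.5% of all *Csf1* UMIs and Sertoli-gene cells 34.7% and 37.3%. In C1q cells themselves *Csf1* was at 141 CPM (112 to 175) and 55.6 CPM (40.5 to 74.3), held by 4 and 8 cells. The control level rested largely on a single cell, since the ratio between the libraries reversed without the highest cells. The highest *Il34* level was in pericyte-gene cells, at 53.9 CPM (34.6 to 80.2) and 79.5 CPM (49.8 to 120), followed by endothelial-gene cells at 8.49 and 15.1 CPM. The far more numerous Sertoli-gene cells were at 0.517 and 0.479 CPM and held 28.3% and 38.8% of its UMIs, against 22.6% and 16.4% in pericyte-gene cells. C1q cells had 0 UMIs of *Il34*, which allows up to 6.35 and 4.55 CPM.

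*Cx3cl1*, the ligand of CX3CR1, was at 59.7 and 60.9 CPM in myoid-gene cells, and *Cx3cr1* had 206 and 400 UMIs in 21 of 22 and 37 of 41 C1q cells. *Cxcl12* was at 446 and 508 CPM in stromal-gene cells, which held 75.6% and 75.1% of its UMIs. *Gas6*, the ligand of MERTK, was at 298 CPM (255 to 346) and 448 CPM (403 to 497) in C1q cells, and at 308 and 330 CPM in Leydig-gene and 165 and 189 CPM in Sertoli-gene cells. By their numbers, Sertoli-gene cells held 73.5% and 79.2% of its UMIs and C1q cells 1.33% and 1.40%.

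**Figure D5:**
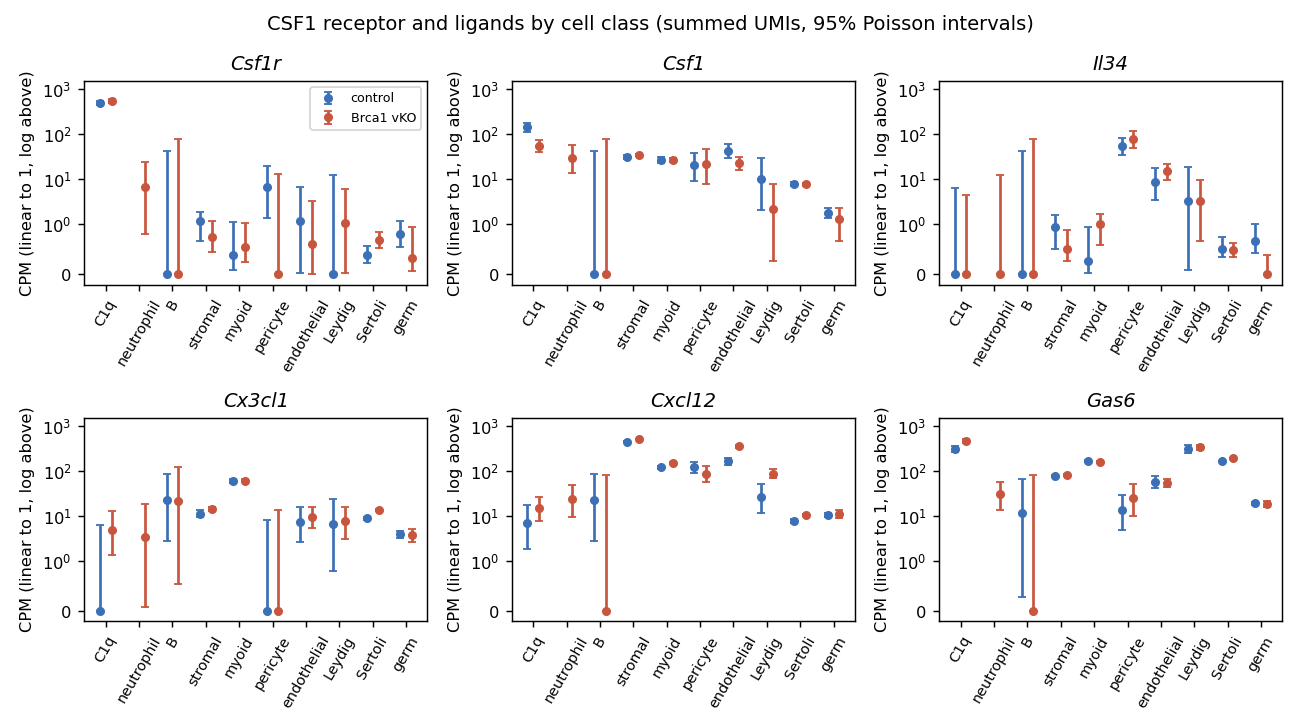
Each panel gives the CPM of 1 gene by class of cells in the control (blue) and *Brca1* vKO (red) library with exact 95% Poisson intervals, on an axis that is linear up to 1 and logarithmic above; classes of fewer than 5 cells are left out. *Csf1r* was at 491 and 544 CPM in C1q cells. Among the classes drawn *Csf1* was highest in C1q cells (141 and 55.6 CPM), where the control level rested largely on a single cell. *Csf1* was lower in stromal-gene, myoid-gene and endothelial-gene cells, and *Il34* was highest in pericyte-gene cells at 53.9 and 79.5 CPM.

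Markers of other cells and depth differed between the C1q cells of the 2 libraries. The summed Sertoli list had medians of 6.26 per 10000 in the control (2.23 to 16.9) and 8.48 in *Brca1* vKO (2.56 to 27.5), and 11 and 12 of its 12 genes were detected. The myoid list had medians of 0.127 and 0.609 with highest cells of 4.25 and 104, and the red blood cell list 2.13 and 0.508. Median depths were 26826.5 and 18898 UMIs. Their part in the differences above was not tested.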

How the data were processed

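Testes of PD7 mice were profiled on the 10x Genomics Chromium platform and sequenced on an MGISEQ-2000RS. The authors deposited UMI counts per gene and cell, made with Cell Ranger 6.0.2 on mm10, and the submitters' processing notes also name R 4.2.3 and Seurat 4.3.0.1. The deposited counts were used as raw whole numbers, with no further filter on genes.

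The cells, gene lists and limits were chosen with earlier results of these data known. C1q cells and the other kinds were defined after values were seen. UMIs were summed over cells, scaled to CPM of all UMIs of the sum, and compared as log2 ratios with a pseudocount of 10 CPM over genes with at least 50 UMIs. Shares have exact Clopper-Pearson intervals, counts exact Poisson intervals and ratios exact conditional intervals, all at 95%. With 1 library per genotype no p-value was computed, and UMIs of 1 cell are not independent samples of the tissue. Cells were thinned to 2000 UMIs for shares of cells. Interval and thinning code was tested on simulated data. Doublets stayed in, and Scrublet calls (scanpy 1.11.5) served as an alternative. Other scalings used edgeR 4.0.16 and DESeq2 1.42.0 for size factors only, with Python 3.11.15, numpy 2.4.6 and scipy 1.17.1. Named genes were the rule's genes, members of the lists, the 15 leading genes, the 8 at each end of the ratios, and *Brca1*. Classes of other cells were cut by summed marker levels per 10000 UMIs. Promoter windows came from RefSeq and start sites from GENCODE.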

Additional observations from a re-analysis of the deposited data

How the results depend on the processing

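No paired analysis was possible because each genotype has 1 library and no replicate numbers, and for the same reason no replicate could be left out. Of 332 values under alternative settings for 44 results, 298 stayed within the range set for the main value and 34 moved. The range was the counting interval for shares, their ratio and ligand levels, and 1.5 times for counts of genes. For list medians it was a binomial range of ranks over the list's genes, which is wide for short lists. The median of all genes was allowed a small fixed shift. For 30 single genes, 337 values set against counting intervals gave 267 and 70. None of these single genes changed sign while past 2-fold, but *Csf1* and *Gdf15*, not among them, did change direction in C1q cells without the highest cells (0.394 to 3.50 and 0.433 to 1.05). The cause of each shift was not tested. Counting C1q cells only, leaving out *C1qc* and leaving out each gene's highest cell were chosen after seeing the data.

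The control share of 0.689% became 0.958% with at most 5% mitochondrial UMIs, 0.433% both with 7 other genes and with C1q cells only, and 0.414% with those genes less *C1qc*. The ratio of shares ranged from 0.726 to 1.14. Genes past 2-fold numbered 93 higher with a pseudocount of 1 CPM. They numbered 132 higher and 111 lower from 20 UMIs, 178 and 154 with no minimum, and 14 and 9 after thinning, and 32 lower without each gene's highest cell. A lower minimum and thinning change how many genes are compared, so those counts do not refer to the same number of genes. After thinning, list medians became 0.15 for transcription factors (main value -0.29), 0.87 for apoptotic cell uptake and 0.42 for lysosome; the mean over cells gave 0.35 for complement. In C1q cells they were 0.06 for lysosome, -0.02 for immediate early genes and 0.53 for S phase.

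Among shares with a UMI, C1q cells only gave 68.2% for *Csf1r* in the control, 9.09% and 2.50% for *Cd74*, 77.3% and 87.5% for *Mrc1*, and 0 in both libraries for *H2-Aa*. In *Brca1* vKO, *Csf1r* was 37.0% at 1000 and 87.2% at 4000 UMIs, and *H2-Aa* 6.38% at 4000. G2/M in *Brca1* vKO became 34.0% at 4000 UMIs and 52.8% from 1 UMI. S phase in the control became 14.3% at 1000 UMIs and 71.4% from 1 UMI, and in *Brca1* vKO 49.1% from 1 UMI. Cell numbers limit the precision of every share.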
